A study of Mus musculus with 9 samples.

Results

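The B cell identity genes are a set of 9 genes that mark the B lymphocyte: Cd79a, Cd79b, Ms4a1, Cr2, Fcer2a, Cxcr5, Pax5, Spib and Klhl14. They were found on the array by RefSeq accession, which gave 11 probes of 56605, 3 of them for Cr2 and 1 for each other gene, and 9 of the 22911 gene symbols that could be assigned. Their levels were read in lungs, taken whole, from C57BL/6J males aged 12 weeks when exposure began. For 6 months the mice breathed a 3.5% aerosol of IQOS, a device that heats tobacco without burning it, or cigarette smoke (CS) at 3.5%, or fresh air. Each group had 3 one-colour Agilent arrays, called IQOS 1 to 3, CS 1 to 3 and air 1 to 3. No genetic change is given for any group, and all share strain, sex, starting age and length of exposure.

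B cells recognise antigen through a surface immunoglobulin that signals through a pair of attached chains, Cd79a and Cd79b. Transcription factors such as Pax5 and Spib set and maintain the lineage, and chemokine receptors such as Cxcr5 lead B cells into follicles, including the lymphoid aggregates that form in chronically inflamed lungs. In a whole-lung extract the signal of these genes depends both on how many B cells the tissue holds and on how much of each mRNA a cell contains, and fewer B cells and less RNA per cell cannot be told apart here.

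Promoter sequences were available from RefSeq on the GRCm38.p6 build for 5 of the 9 genes, and 4 are shown. Cd79a and Cr2 represent the genes that stayed close to the shared pattern over the arrays. Spib and Pax5, both transcription factor genes, departed from it in level relative to the other genes. Fcer2a, whose windows are not shown, departed about as much as Spib, and a link between motifs and the pattern was not tested. Each sequence shown runs 5′ to 3′ on the gene's strand from 250 bases before to 50 bases after the annotated start. Capitals mark matches to GAGGAA, a core bound by PU.1-type Ets factors such as Spib, and to CAGGTG, an E-box core, on either strand. The windows are chr7:24897247-24897546 on the plus strand for Cd79a, chr1:195176670-195176969 on the minus strand for Cr2, chr7:44532022-44532321 on the minus strand for Spib and chr4:44710645-44710944 on the minus strand for Pax5.
Cd79a: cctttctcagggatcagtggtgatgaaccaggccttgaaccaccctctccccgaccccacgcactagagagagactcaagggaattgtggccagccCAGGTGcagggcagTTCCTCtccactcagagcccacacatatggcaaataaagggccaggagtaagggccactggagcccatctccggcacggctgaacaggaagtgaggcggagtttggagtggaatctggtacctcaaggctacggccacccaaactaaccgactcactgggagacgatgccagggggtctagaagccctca
Cr2: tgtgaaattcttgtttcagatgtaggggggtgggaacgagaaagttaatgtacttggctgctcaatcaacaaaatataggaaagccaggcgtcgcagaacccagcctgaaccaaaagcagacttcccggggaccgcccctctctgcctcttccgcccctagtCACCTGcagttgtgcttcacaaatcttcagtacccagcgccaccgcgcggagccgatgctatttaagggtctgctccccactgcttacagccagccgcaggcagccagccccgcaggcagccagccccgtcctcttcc
Spib: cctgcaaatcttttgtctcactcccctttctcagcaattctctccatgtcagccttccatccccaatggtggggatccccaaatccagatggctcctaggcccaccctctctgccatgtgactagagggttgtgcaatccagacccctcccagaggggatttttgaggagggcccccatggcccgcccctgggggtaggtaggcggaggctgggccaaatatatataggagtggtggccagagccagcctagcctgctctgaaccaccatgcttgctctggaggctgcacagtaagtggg
Pax5: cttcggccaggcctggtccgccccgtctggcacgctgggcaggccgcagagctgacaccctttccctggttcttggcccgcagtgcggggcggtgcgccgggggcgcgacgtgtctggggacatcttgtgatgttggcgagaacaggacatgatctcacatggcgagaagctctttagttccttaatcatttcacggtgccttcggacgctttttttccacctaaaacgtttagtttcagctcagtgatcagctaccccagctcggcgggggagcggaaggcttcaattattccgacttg

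The Cd79a window held CAGGTG 154 bases before the start and GAGGAA on the opposite strand, read as TTCCTC, 140 bases before it. The Cr2 window held the E-box core on the opposite strand, read as CACCTG, 88 bases before the start. One window of Fcer2a, whose gene has 3, held CAGGTG 244 and 99 bases before its start. The windows of Spib and Pax5 held neither motif. Neither the octamer ATTTGCAT nor an Ebf-type sequence, TCCC and GGGA separated by 2 bases, was found in any of the 7 windows of these 5 genes. Over all 32851 windows of the same length, GAGGAA occurred in 28.3%, CAGGTG in 20.2%, the octamer in 1.74% and the Ebf-type sequence in 0.904%, counting both strands. No motif overlapped another in these windows.

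Levels are given as relative signal, the spot intensity divided by the 75th percentile of its array. Changes are log2 differences ± standard error from limma over 37258 tested probes with 3 arrays per group, and a call means an adjusted p (Benjamini-Hochberg, over those probes) under 0.05. All 11 member probes met the filter for testing. Of the 9 genes, 8 were well above background on all 9 arrays, and Klhl14 on the IQOS and air arrays only. Lung markers (Sftpc, Sftpb, Scgb1a1, Ager, Cldn5 and Cdh5) and the further B cell markers Cd22, Ebf1 and Pou2af1 were well above background on all 9 arrays, and Blk on 7. Between 64.3% and 68.8% of probes were well above background on an array, and precision is limited by having 3 arrays per group. Nothing in the labels ties each array to its own animal, and the p-values therefore cover only the spread between these samples, which may be technical. The IQOS arrays lay alone on 1 slide and the CS and air arrays shared another, so the slide cannot be told apart from exposure to IQOS, while CS and air were compared within 1 slide. All 3 CS arrays lay in array row 2, where air 3 was the only air array, and the IQOS arrays lay in row 1 with air 1 and air 2 in row 1 of their own slide. A row covariate is thus estimated from the 3 air arrays only. Both comparisons with air use the same 3 air arrays.

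Over the 9 genes the CS mean was the lowest of the 3 groups in 8, and in 7 the IQOS mean lay between the CS and air means. The median change of the 9 genes was -1.30 for CS against air, -0.35 for IQOS against air and 0.92 for IQOS against CS, beside medians of -0.02, 0.00 and 0.03 over all tested probes. In CS against air, 4 of the 11 probes were called lower, those of Ms4a1, Klhl14 and 2 of the 3 for Cr2, where 5.68% of all tested probes were called lower. Klhl14 was not well above background on any CS array and could be tested only through the groups where it was high. Of the 10 member probes well above background on all 9 arrays, 3 were called lower, beside 5.71% of all such probes. In IQOS against air, 0 of the 11 were called by limma, beside 0.98% of all probes called lower and 2.74% called higher, and 1 probe, that of Fcer2a, was lower at an unadjusted p under 0.05, beside 9.82% of all probes. In IQOS against CS, 1 of the 11 was called, the Spib probe, which was higher, beside 5.71% of all probes called higher and 3.93% called lower. The 4 calls for CS and the 1 call for Spib were sensitive to single arrays and to a term for array row, as given with each gene.

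**Figure D1:**
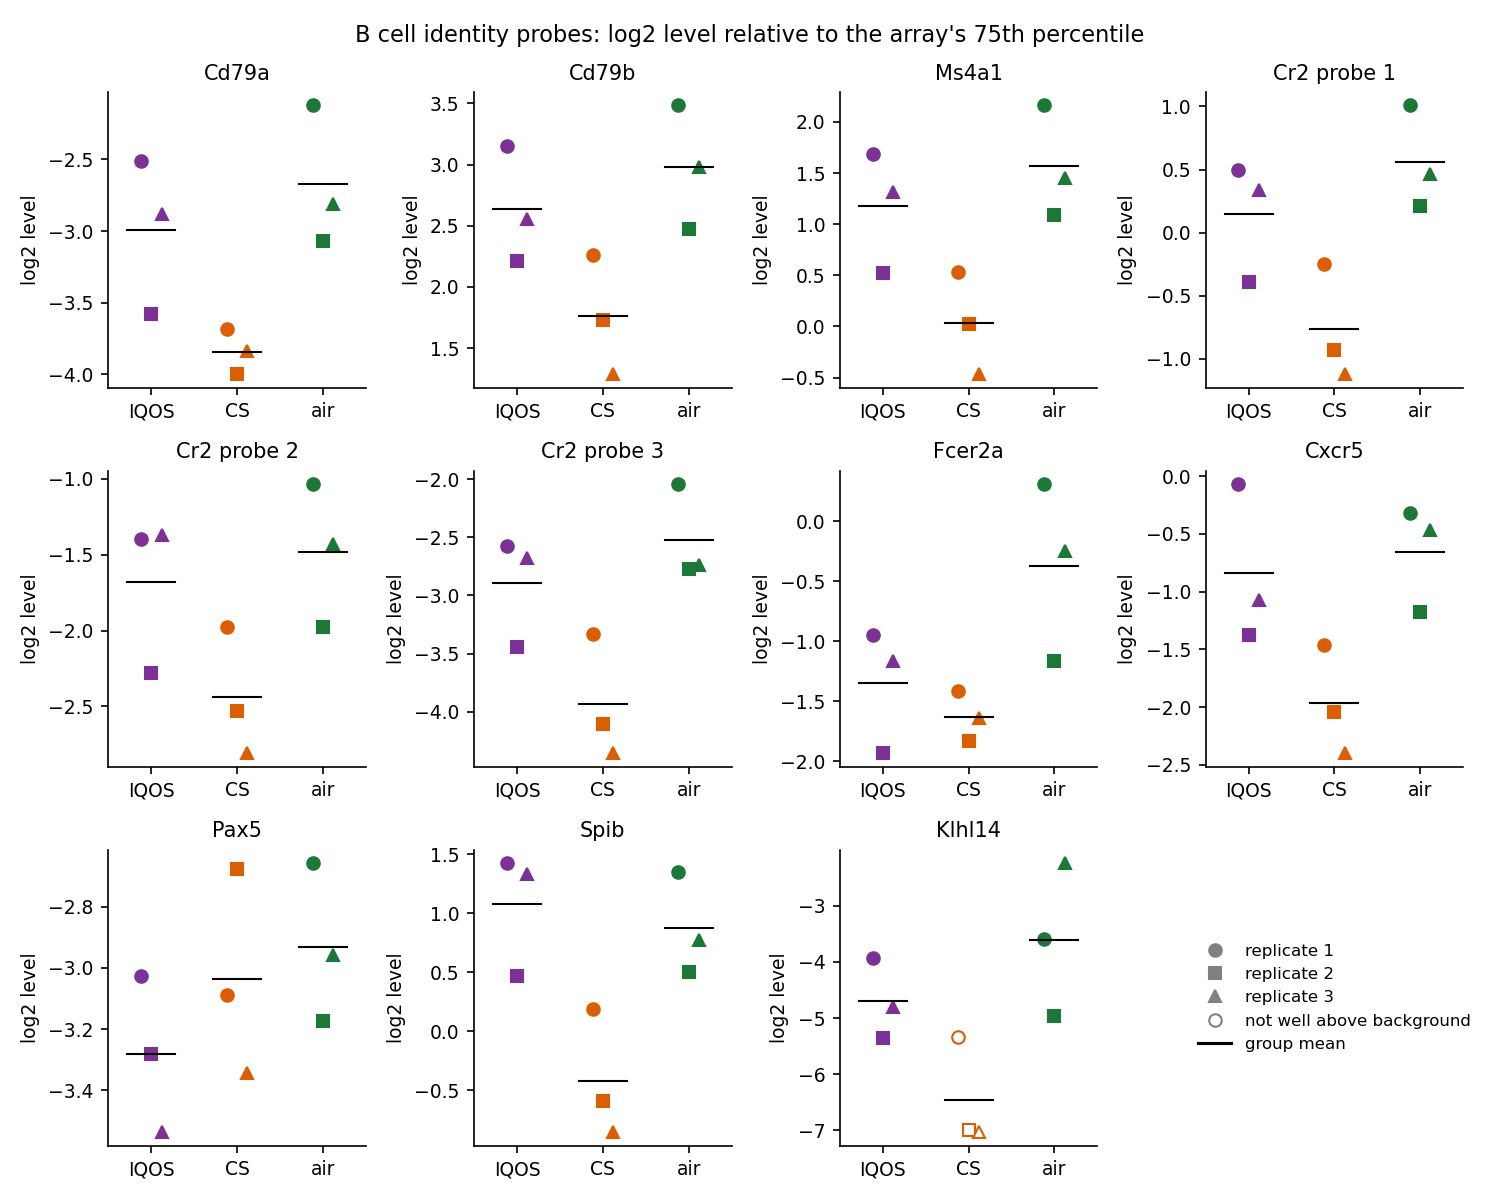
Log2 level of each of the 11 probes, relative to the array's 75th percentile, in the IQOS, CS and air arrays; each point is 1 array, its shape the replicate number, open points are not well above background and bars are group means. The CS arrays lie below every air array in 9 of the 11 panels, and in the Pax5 panel the groups overlap.

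**Figure D2:**
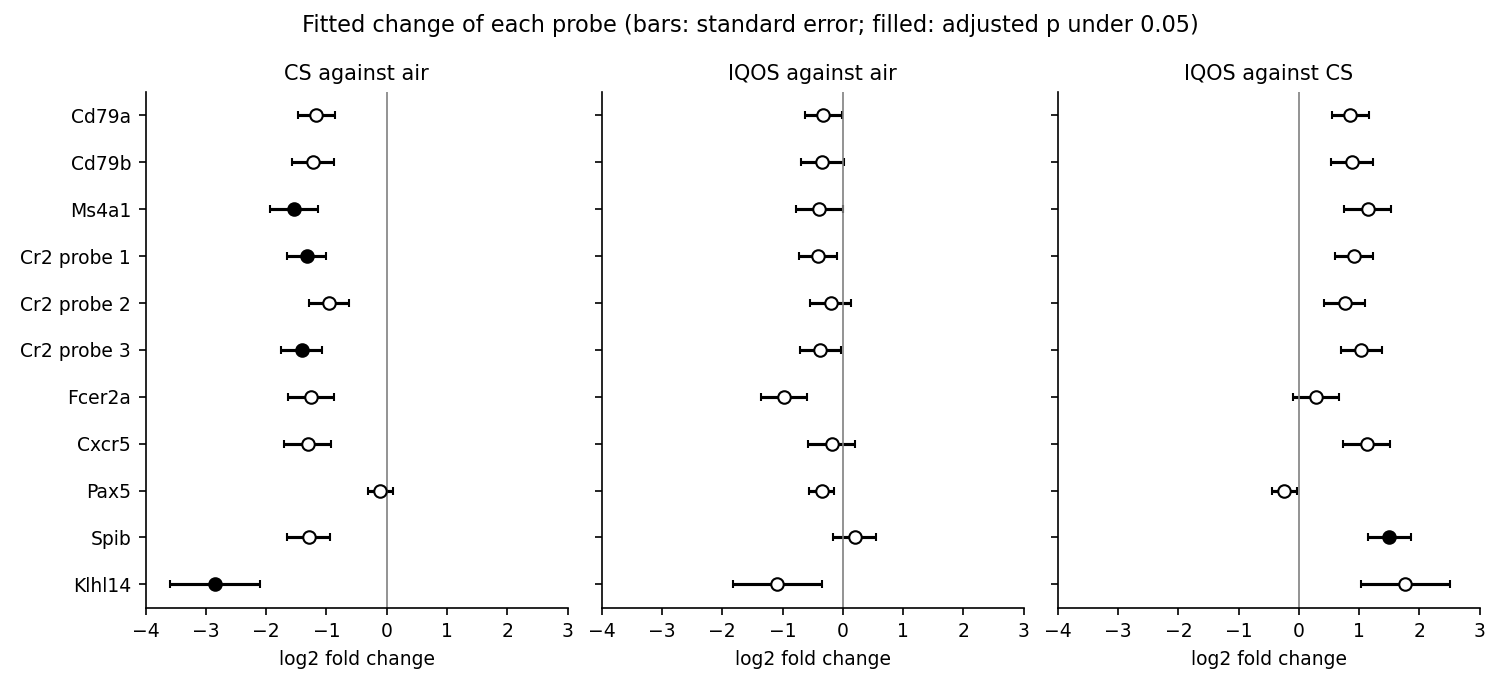
Fitted log2 change of each probe in CS against air, IQOS against air and IQOS against CS, with bars for the standard error (3 arrays per group) and filled points for an adjusted p under 0.05. In CS against air 9 of the 11 probes lie between -0.96 and -1.54, with Pax5 at -0.11 and Klhl14 at -2.85.

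Cd79a and Cd79b encode the signalling pair of the B cell antigen receptor. Cd79a had a relative signal of 0.175, 0.0837 and 0.136 in the IQOS arrays, 0.0778, 0.0626 and 0.0699 in the CS arrays and 0.23, 0.119 and 0.142 in the air arrays. Every CS array was below every air array and every IQOS array, while the IQOS and air arrays overlapped. The CS against air difference was -1.17 ± 0.31 (95% interval -1.88 to -0.46), and its adjusted p of 0.0505 missed the threshold. IQOS against CS gave 0.85 ± 0.31 (adjusted p 0.121) and IQOS against air -0.32 ± 0.31 (95% interval -1.03 to 0.39).

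Cd79b showed the same order. The relative signal was 8.89, 4.63 and 5.88 in the IQOS arrays, 4.8, 3.32 and 2.44 in the CS arrays and 11.2, 5.54 and 7.89 in the air arrays. The CS arrays again lay below all air arrays, but CS 1 was above IQOS 2. The difference was -1.22 ± 0.35 for CS against air (adjusted p 0.0637), 0.88 ± 0.35 for IQOS against CS (adjusted p 0.149) and -0.34 ± 0.35 for IQOS against air (95% interval -1.15 to 0.47).

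Ms4a1 encodes CD20, the surface protein of mature B cells that therapeutic antibodies target. Its relative signal was 3.22, 1.43 and 2.49 in the IQOS arrays, 1.45, 1.02 and 0.723 in the CS arrays and 4.47, 2.13 and 2.74 in the air arrays. All CS arrays were below all air arrays, and CS 1 and IQOS 2 were almost level. Ms4a1 fell 2.91-fold with CS against air (-1.54 ± 0.39, adjusted p 0.046). IQOS against CS gave 1.14 ± 0.39 (adjusted p 0.104) and IQOS against air -0.39 ± 0.39 (95% interval -1.30 to 0.51). With 1 array left out at a time the call for CS against air held only without CS 1 or without IQOS 2, and the change ranged from -1.79 to -1.24 over the 9 such fits. With array row as a covariate the change was -1.43 (adjusted p 0.288), in a fit that called 0.486% of all probes lower.

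Cr2 encodes complement receptor 2, the coreceptor that binds complement-tagged antigen on B cells and follicular dendritic cells. The first of its 3 probes had a relative signal of 1.41, 0.764 and 1.26 in the IQOS arrays, 0.841, 0.525 and 0.46 in the CS arrays and 2.01, 1.16 and 1.38 in the air arrays. This probe fell 2.51-fold with CS against air (-1.33 ± 0.32, adjusted p 0.0403), and all CS arrays were below all air arrays. The third probe fell by a similar amount (-1.41 ± 0.34, adjusted p 0.0401), also without overlap. The second probe had 0.38, 0.206 and 0.388 in the IQOS arrays, 0.255, 0.173 and 0.143 in the CS arrays and 0.488, 0.254 and 0.371 in the air arrays. CS 1 and air 2 met there, and the difference of -0.96 ± 0.34 did not pass (adjusted p 0.109). For IQOS against CS the 3 probes gave 0.92, 0.76 and 1.04, and for IQOS against air -0.41, -0.20 and -0.38, none of them called. Both calls for CS against air held only without CS 1 or without IQOS 2 when 1 array was left out, and over the 9 such fits the change ranged from -1.59 to -1.10 for the first probe and -1.71 to -1.18 for the third. With array row as a covariate the changes were -1.23 (adjusted p 0.268) and -1.19 (adjusted p 0.295).

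Fcer2a encodes CD23, the low-affinity IgE receptor of mature B cells. Its relative signal was 0.518, 0.262 and 0.446 in the IQOS arrays, 0.375, 0.28 and 0.32 in the CS arrays and 1.24, 0.446 and 0.842 in the air arrays. The CS arrays lay inside the range of the IQOS arrays, and of the IQOS arrays IQOS 1 was above the lowest air array and IQOS 3 level with it. CS against air gave -1.26 ± 0.38 (adjusted p 0.0731) and IQOS against air -0.98 ± 0.38 (unadjusted p 0.0334, adjusted p 0.188, 95% interval -1.86 to -0.10), so neither passed. IQOS against CS was 0.28 ± 0.38 (95% interval -0.60 to 1.16).

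Cxcr5 encodes the receptor for Cxcl13, the chemokine that draws B cells into follicles. The arrays gave a relative signal of 0.951, 0.386 and 0.475 in the IQOS arrays, 0.363, 0.243 and 0.19 in the CS arrays and 0.799, 0.442 and 0.725 in the air arrays. All CS arrays were below every array of the other groups. The differences were -1.31 ± 0.39 for CS against air (adjusted p 0.0691), 1.13 ± 0.39 for IQOS against CS (adjusted p 0.108) and -0.19 ± 0.39 for IQOS against air (95% interval -1.08 to 0.71). The ligand gene Cxcl13 had 1.25, 0.952 and 1.99 in the IQOS arrays, 0.663, 0.852 and 0.602 in the CS arrays and 0.984, 0.815 and 0.923 in the air arrays. For Cxcl13, IQOS against CS was 0.93 ± 0.25 without overlap (adjusted p 0.0575), IQOS against air was 0.56 ± 0.25 (adjusted p 0.249) and CS against air was -0.37 ± 0.25 (adjusted p 0.37).

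Spib encodes an Ets-family transcription factor of B cells and plasmacytoid dendritic cells. Its relative signal was 2.68, 1.38 and 2.52 in the IQOS arrays, 1.14, 0.662 and 0.552 in the CS arrays and 2.55, 1.42 and 1.71 in the air arrays. All CS arrays were below every IQOS and every air array, and the IQOS and air arrays covered nearly the same range. Spib was 2.82-fold higher in IQOS than in CS (1.497 ± 0.36, adjusted p 0.0401), while CS against air (-1.30 ± 0.36, adjusted p 0.0574) just missed the threshold. It was the 1 gene of the 9 with a positive value in IQOS against air (0.20 ± 0.36, 95% interval -0.63 to 1.03). The call for IQOS against CS held without air 2, without CS 1 or without IQOS 2 and ended without any other single array, and the change ranged from 1.28 to 1.80 over the 9 such fits. With array row as a covariate the change was 1.34 (adjusted p 0.501), in a fit that called 0.185% of all probes higher.

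Pax5 encodes the factor that commits cells to the B lineage and keeps them there. Pax5 had a relative signal of 0.123, 0.103 and 0.0861 in the IQOS arrays, 0.118, 0.156 and 0.0985 in the CS arrays and 0.158, 0.111 and 0.129 in the air arrays. The groups overlapped in part: IQOS 2, IQOS 3 and CS 3 lay below the lowest air array, and CS 2 was close to the highest. CS against air gave -0.11 ± 0.21 (adjusted p 0.777, 95% interval -0.58 to 0.37). That value changed sign under normexp background correction (0.044), without air 1 (0.031) and without CS 3 (0.048). IQOS against air was -0.35 ± 0.21 (adjusted p 0.363) and IQOS against CS -0.25 ± 0.21 (adjusted p 0.477).

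Klhl14 encodes a Kelch-family adaptor of ubiquitin ligases, known in mice to regulate the antigen receptor and the balance of B cell subsets. Its relative signal was 0.0658, 0.0245 and 0.036 in the IQOS arrays, 0.0247, 0.00782 and 0.00763 in the CS arrays and 0.0825, 0.032 and 0.211 in the air arrays. Air 3 was the highest, all CS arrays were below all air arrays, and CS 1 met IQOS 2. The probe was not well above background on any CS array, so it passed the filter only through the IQOS and air arrays. With a floor on the CS arrays, Klhl14 was 3.08-fold lower in CS than in air on group means (fitted -2.85 ± 0.74, adjusted p 0.0489). Each CS array entered at no less than the lowest signal of any probe well above background on that array. That floor is not a detection limit of this probe, so the difference may be smaller or larger. The floored value covers the means of these arrays and not their spread, and the fitted 95% interval was -4.57 to -1.14. With the same floor Klhl14 was 1.45-fold higher in IQOS than in CS on group means. That difference did not pass (fitted 1.77 ± 0.74, 95% interval 0.05 to 3.48, adjusted p 0.168). IQOS against air gave -1.09 ± 0.74 (95% interval -2.80 to 0.63). The call for CS against air held only without air 2 or without CS 1 when 1 array was left out. The change was -0.91 under normexp background correction (adjusted p 0.103), and the adjusted p was 0.0511 in the deposited matrix and 0.0846 with array row as a covariate.

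Over the 11 probes, 9, Klhl14 among them, had all CS arrays below all air arrays, beside 19.6% of all tested probes, and 10 had an unadjusted p under 0.05 in that direction, beside 16.5%. For IQOS against CS, 3 probes had all IQOS arrays above all CS arrays (Cd79a, Cxcr5 and Spib), beside 18.9% of all probes, and 8 had an unadjusted p under 0.05, beside 16.6%. For IQOS against air all 11 probes overlapped, beside 13.9% of all probes without overlap and lower and 15.2% without overlap and higher. Within array row 2, air 3 was above all 3 CS arrays for 10 of the 11 probes, the exception being Pax5, beside 33.4% of all tested probes with a value on these arrays.

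The genes varied together between arrays of the same group. IQOS 1 was the highest IQOS array for 9 of 9 genes and IQOS 2 the lowest for 8. CS 1 was the highest CS array for 8 genes and CS 3 the lowest for 7. Air 1 was the highest air array for 8 genes and air 2 the lowest for 9. The mean of the 9 genes, each centred on its 9-array mean, was 0.65, -0.35 and 0.18 on the log2 scale in the IQOS arrays, -0.30, -0.86 and -1.10 in the CS arrays and 1.02, 0.03 and 0.72 in the air arrays. By this mean IQOS 2 was close to CS 1, and IQOS 1 close to air 3. Klhl14, not well above background on any CS array, enters this mean and the other averages of the genes that include it.

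The spread within groups was wide for these genes. Its SD was 0.29 for Pax5, 1.05 for Klhl14 and 0.43 to 0.55 for the other 7 genes on the log2 scale, beside a median of 0.14 over all tested probes. After subtracting the mean of the other 8 genes on the same array the within-group SD was 0.12 for Cd79b, at most 0.27 for the 7 genes, 0.46 for Pax5 and 0.81 for Klhl14. The mean absolute difference of a gene from the average of the others was smallest for Cd79b (0.0969) and Cr2 (0.111) and largest for Pax5 (0.637) and Klhl14 (0.648).

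**Figure D3:**
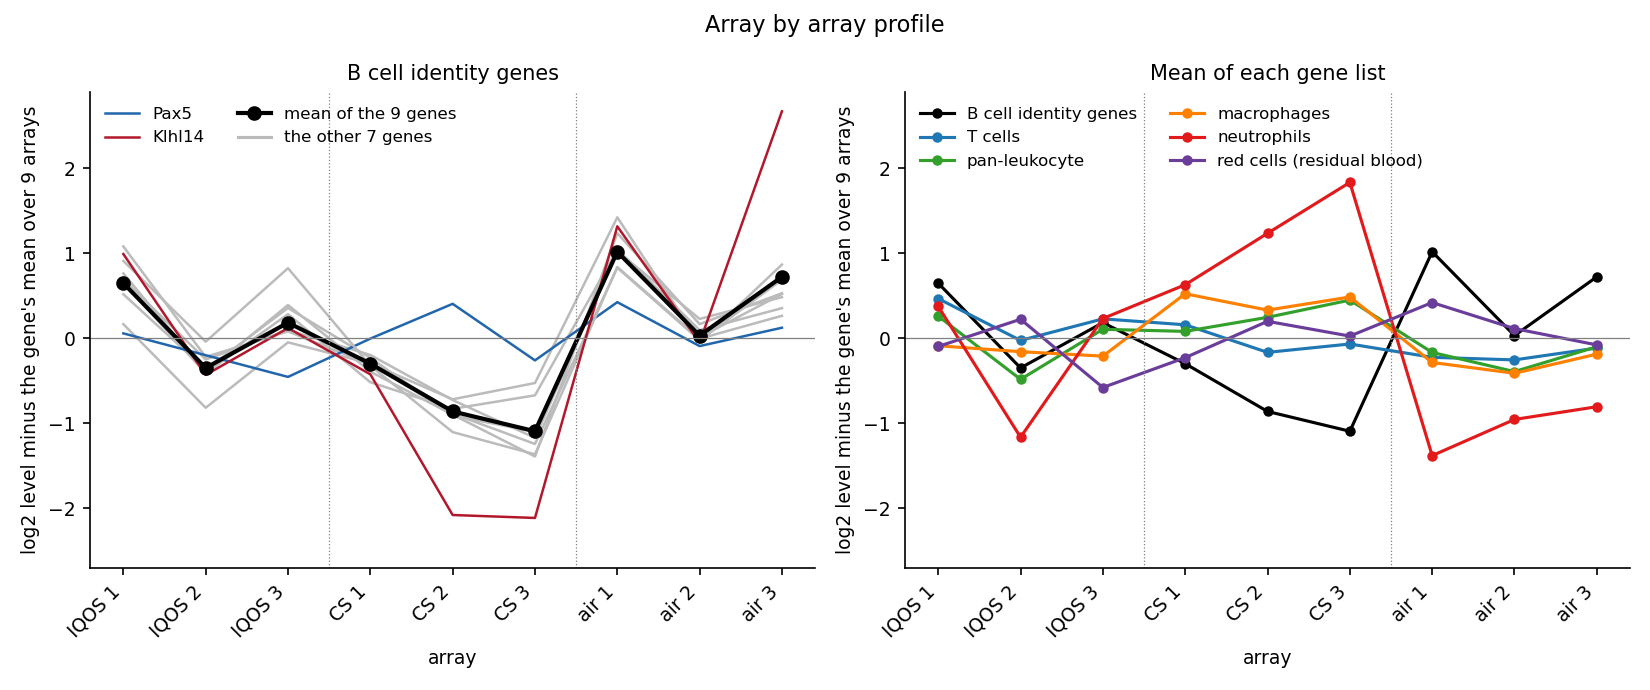
Left, log2 level of each B cell identity gene on the 9 arrays, centred on the gene's mean, with the mean of the 9 genes in black; right, that mean beside the means of the T cell, pan-leukocyte, macrophage, neutrophil and red cell lists. The black line lies at -0.30, -0.86 and -1.10 in the CS arrays, below its value in every air array, and the neutrophil line is highest in CS 3 (1.84).

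Levels relative to the other 8 genes of the same array showed which genes departed from the shared pattern. The relative level of Spib was 0.30, 0.35 and 0.72 in the IQOS arrays, -0.03, -0.27 and -0.31 in the CS arrays and -0.20, -0.04 and -0.52 in the air arrays. Every IQOS array was above every CS and every air array, with differences of means of 0.66 and 0.71. For Fcer2a it was -0.54, -0.53 and -0.26 in the IQOS arrays, 0.00, 0.16 and 0.64 in the CS arrays and 0.46, -0.09 and 0.16 in the air arrays. Here every IQOS array was below the others, by -0.71 against CS and -0.62 against air. For Pax5, CS minus air was 1.39 and IQOS minus CS was -1.30, both without overlap. These sizes depend in part on Klhl14 among the averaged genes. Klhl14 was not well above background on any CS array, so its points there in the plot of relative levels have no measured size, and no difference is given. An exact permutation test of 3 against 3 arrays cannot give a p below 0.1, so these 27 comparisons, 9 genes in 3 contrasts, are given without a test. When Pax5 and Klhl14 were left out of the averaged genes, a choice made after seeing the data, the difference for IQOS against air was 0.64 for Spib and -0.74 for Fcer2a. For IQOS against CS it was then 0.63 for Spib and -0.79 for Fcer2a. Ms4a1, which overlapped before, was then lower in CS than in air without overlap (-0.27). A difference relative to the other genes shows unequal change and does not show which gene changed.

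**Figure D4:**
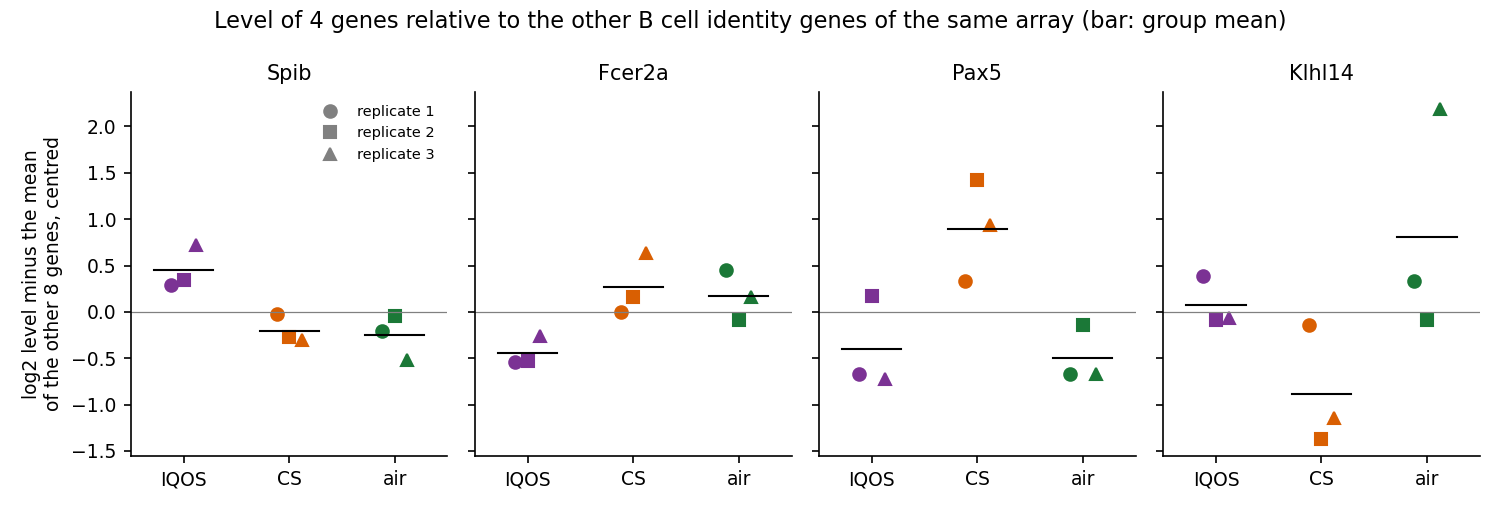
Log2 level of Spib, Fcer2a, Pax5 and Klhl14 minus the mean of the other 8 B cell identity genes on the same array, centred over the 9 arrays; points are arrays, shapes the replicate number and bars group means, and the CS points of Klhl14 are not well above background. IQOS arrays lie above all others for Spib (0.30 to 0.72) and below all others for Fcer2a (-0.54 to -0.26).

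The genes whose array profile lay closest to the mean of the members were found among 16584 other named genes by the mean absolute log2 difference over the 9 arrays, whose median over all these genes was 0.591. Among the nearest were H2-Ob (0.0724), Siglecg (0.0823), Fcrla (0.106), Xkrx (0.109), Bcl11a (0.112), Fcrl1 (0.112) and Srpk3 (0.115). H2-Ob had 1.53, 0.755 and 1.09 in the IQOS arrays, 0.778, 0.62 and 0.423 in the CS arrays and 1.77, 0.898 and 1.55 in the air arrays. Of these, Siglecg (-1.31 ± 0.30, adjusted p 0.035) and Fcrla (-1.36 ± 0.33, adjusted p 0.0401) were called lower in CS against air, beside 6.12% of tested genes. The genes were picked for a profile like the members' mean, so lower values in CS follow from the choice and the calls add no support. The profiles share the arrays and their scaling, and the likeness is a description.

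Antigen receptor and coreceptor signalling genes beyond the members changed in part. Of 24 such genes in CS against air, 5 fell and 1 rose (median -0.32), where 6.12% of tested genes fell and 5.6% rose. Those that fell were Ralgps2 (-0.59 ± 0.09, adjusted p 0.01), an exchange factor for Ral GTPases, the B cell kinase gene Blk (-1.06, well above background on 1 of the 3 CS arrays), the inhibitory lectin gene Siglecg, Fcrla and Ly6d (-0.99), a surface protein of the early B lineage. The gene that rose, Cd53 (0.89), encodes a tetraspanin found on most leukocytes; Cd53 and Ly6d were named after their values were seen. The inhibitory receptor gene Cd22 differed by -0.32 ± 0.10 (adjusted p 0.088). In IQOS against air 1 of the 24 fell, Ralgps2 (-0.40 ± 0.09, adjusted p 0.0475), where 0.886% of genes fell. For IQOS against CS limma called 0 of 24, beside 4.94% of genes called higher and 5.18% lower. At an unadjusted p under 0.05, 10 were higher and 2 lower there, beside 16.6% and 11.5% of all tested probes.

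Of 20 B lineage transcription factor genes, 2 fell and 0 rose in CS against air (median -0.27), where 6.12% of tested genes fell and 5.6% rose. They were Tcf3 (-0.31 ± 0.06, adjusted p 0.0175), which encodes the E2A proteins that bind E-boxes, and Myb (-0.65 ± 0.13, adjusted p 0.0218), a factor of progenitors and lymphocytes. Ebf1 gave -0.69 ± 0.24 (adjusted p 0.109) with all CS arrays below all air arrays, and the coactivator gene Pou2af1 gave -0.57 ± 0.34 (adjusted p 0.304) with overlap. In the other direction Spi1 gave 1.04 ± 0.32 (adjusted p 0.0768), with all CS arrays above all air arrays. At an unadjusted p under 0.05, 6 of the 20 were lower and 1 higher in CS against air, beside 16.5% and 12.5% of all tested probes. In IQOS against air limma called 0 of the 20, with 1 lower at an unadjusted p under 0.05, beside 9.82% of all tested probes. For IQOS against CS Myb was higher (0.53 ± 0.13, adjusted p 0.0406). Over all tested genes 4.94% were higher in IQOS against CS.

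Survival and homing genes were measured for 21 of 23 listed. Of these 2 fell and 1 rose in CS against air, where 6.12% of tested genes fell and 5.6% rose. In CS against air the BAFF receptor gene Tnfrsf13c fell (-1.56 ± 0.38, adjusted p 0.0407), with 1.21, 0.522 and 0.778 in the IQOS arrays, 0.485, 0.285 and 0.237 in the CS arrays and 1.3, 0.718 and 0.902 in the air arrays. Cd40, a costimulatory receptor of B cells and other antigen-presenting cells, fell too (-0.62 ± 0.10, adjusted p 0.0135), and Cd86, a costimulatory ligand, rose (0.52 ± 0.14, adjusted p 0.05 after rounding, under the threshold before it). In IQOS against air limma called 0 of 21, with 1 lower at an unadjusted p under 0.05, beside 9.82% of all tested probes. In IQOS against CS the sphingosine 1-phosphate receptor gene S1pr4 (0.67 ± 0.17, adjusted p 0.0459) and the lymphoid chemokine gene Ccl21a (0.59 ± 0.14, adjusted p 0.0398) were higher. Over all tested genes 4.94% were higher there.

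MHC class II genes, which B cells share with macrophages and dendritic cells, gave no call. Of 11 genes limma called 0 in each comparison. In CS against air 3 were lower at an unadjusted p under 0.05, beside 16.5% of all tested probes, and the median was 0.03. The invariant chain gene Cd74 gave 0.13 ± 0.11 in CS against air (adjusted p 0.501), while H2-Ob, a subunit of the H2-O modulator of peptide loading, gave -1.20 ± 0.35 (adjusted p 0.0667). The plasma cell list had a median of -0.02 in CS against air. Of its 15 genes 1 fell and 1 rose, where 6.12% of tested genes fell and 5.6% rose. Ell2, an elongation factor of antibody-secreting cells, rose (0.49 ± 0.12, adjusted p 0.0468). The ectoenzyme gene Cd38, also on the list, fell (-0.57 ± 0.12, adjusted p 0.0265). Jchain, which joins secreted IgM and IgA, had 21.9, 26.8 and 38.96 in the IQOS arrays, 27.3, 20.03 and 23.1 in the CS arrays and 19.8, 16.4 and 31.9 in the air arrays. The groups overlapped for Jchain, with 0.10 ± 0.28 in CS against air (adjusted p 0.858).

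**Figure D5:**
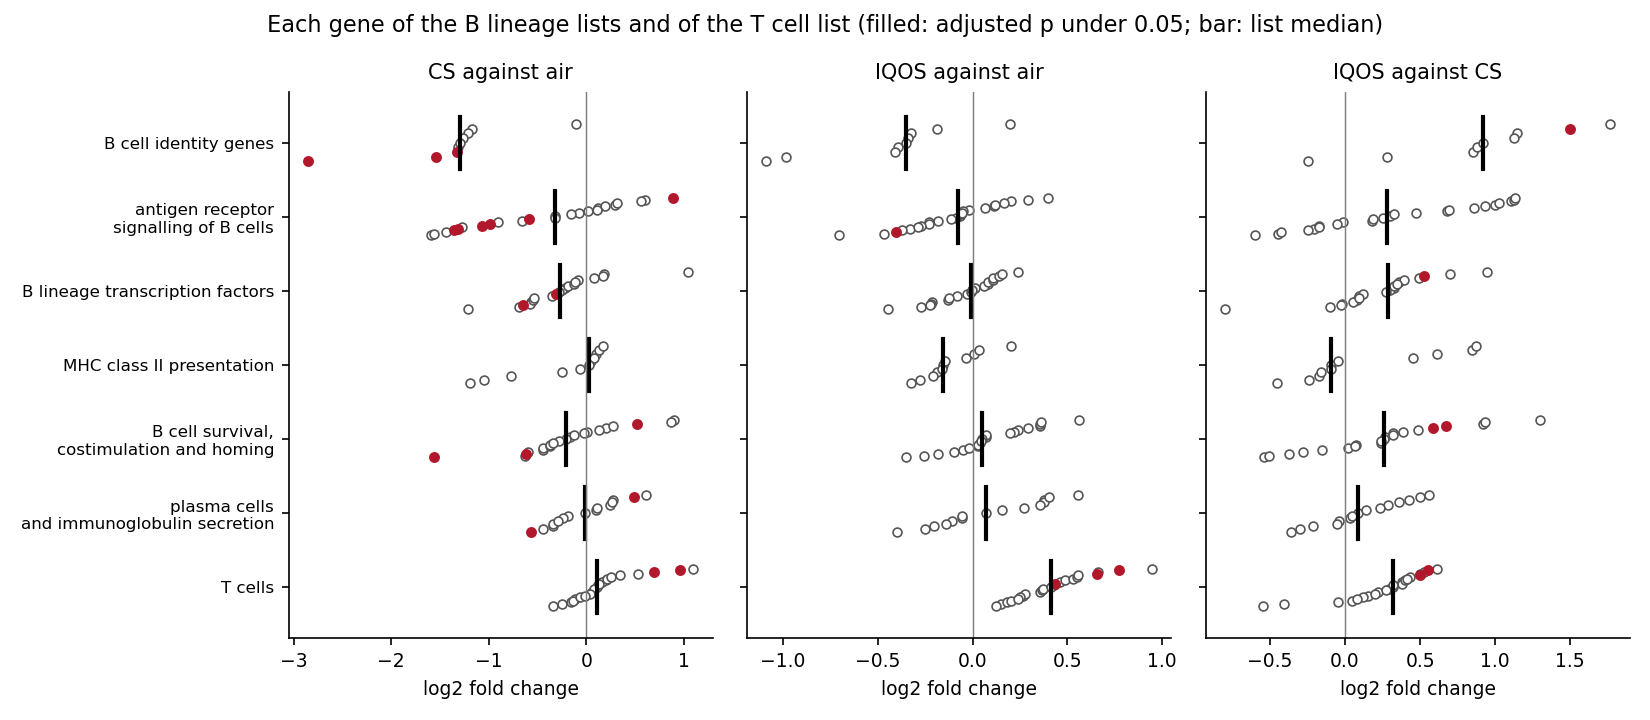
Log2 change of every tested gene of the B cell identity set, 5 further lists of B cell biology and the T cell list in the 3 comparisons, filled where the adjusted p is under 0.05, with a bar at each median. The identity genes have medians of -1.30, -0.35 and 0.92, and the T cell genes lie above 0 in IQOS against air for 23 of 23 genes.

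Markers of other leukocytes were read on the same arrays. Of 23 T cell genes 3 rose in IQOS against air (Cd4 by 0.66 ± 0.06, Icos by 0.78 ± 0.14 and Cd247 by 0.43 ± 0.06; median 0.42), where 1.99% of genes rose. In CS against air 2 rose, where 5.6% of genes rose (median 0.11). They were Icos (by 0.70) and Ctla4 (by 0.96, with a signal well above background on 1 of the 3 air arrays). In IQOS against CS 2 were higher, Cd247 by 0.55 and Cd4 by 0.50, where 4.94% of genes were higher. The median was 0.32, with 20 of 23 above 0. The summed relative signal of the T cell list ranged from 31.9 to 43.9 in the IQOS arrays, 27.6 to 35.3 in the CS arrays and 27.6 to 30.1 in the air arrays. Cd3e, a chain of the T cell receptor complex, did not pass in IQOS against air (0.46 ± 0.18, adjusted p 0.19), although all IQOS arrays were above all air arrays.

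In CS against air 6 of 14 neutrophil genes and 7 of 12 macrophage genes rose and 1 macrophage gene fell, with medians of 2.23 and 0.54. Over all tested genes 5.6% rose and 6.12% fell in this comparison. The summed relative signal of the neutrophil list ranged from 218.3 to 485.2 in the IQOS arrays, 416.7 to 867.9 in the CS arrays and 213.3 to 266.9 in the air arrays. That of the macrophage list ranged from 177.8 to 204.02 in the IQOS arrays, 299.5 to 388.5 in the CS arrays and 158.6 to 181.8 in the air arrays. Of 11 pan-leukocyte genes 3 rose with CS against air (Itgb2 by 1.02, Lcp1 by 0.83 and Laptm5 by 0.50), and Ptprc, which encodes CD45, gave 0.40 ± 0.24 (adjusted p 0.311). CS 3, the lowest CS array for most B cell identity genes, had the highest mean of the neutrophil list (1.84), and CS 1, the highest for most, had the lowest of the CS arrays (0.63). Among the IQOS arrays IQOS 2 was lowest for both the B cell identity genes and the neutrophil list (-1.17). The mean of the residual red cell list ran from -0.58 to 0.22 in the IQOS arrays, -0.23 to 0.20 in the CS arrays and -0.08 to 0.42 in the air arrays, with 0 of 8 genes called by limma in any comparison and 0 at an unadjusted p under 0.05. All 12 macrophage, 11 pan-leukocyte and 8 red cell genes, 22 of 23 T cell genes and 13 of 14 neutrophil genes were well above background on all arrays, and the part of these cells in the differences of the B cell identity genes was not tested.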

How the data were processed

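Whole-lung RNA of 9 samples was measured on one-colour (Cy3) arrays. Per the file headers, the authors read spot intensities as background-subtracted signals without normalization between arrays; their software was Agilent Feature Extraction 10.7.1.1. The deposited matrix holds linear ratios to each array's 75th percentile, a scale found from its values, and served as an alternative. The deposited outlier flags and flags for signal well above background (coded 0 or 1) were used as given. Groups came from the labels.

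Outlier spots were left out, spots of 1 probe were averaged as log2 signals, and each array was scaled to its 75th percentile (973.3 to 1098 units; 0 probe values saturated). Testing required values on 2 or more arrays of each group and, in 1 group or more, a signal well above background wherever a value existed; 37258 of 56605 probes met this. Using limma 3.58.1 (R 4.3.3), 1 linear model with moderated variances took in all 9 arrays, and p-values were adjusted over all tested probes. The fit was tested on simulated data. The number of arrays and the signal over background set the precision. Symbols came from a table of mouse RefSeq accessions, which named 32994 probes (58.3%); the planned mean signal column was not in the files, so median signals were used for normexp with an offset of 50. A gene in a list was represented by its probe with the highest mean signal.

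The members and the gene lists were chosen with earlier results of these data known, and lists are described by counts and medians only. Named genes were the 9 members, up to 4 genes of smallest p per list and comparison, defining genes of the lists (Cd22, Ebf1, Pou2af1, Jchain, Cxcl13, Cd3e, Cd74, Ptprc and Tnfrsf13c) and the 8 genes nearest in profile. Of these the text gives chiefly those called and the defining genes, and 1 gene is not reported here. Alternatives were normexp, quantile and median scaling, no filter and a filter on all 9 arrays, the deposited matrix, an intensity trend with robust prior, array row as a covariate, the replicate number as a block, only the 2 groups compared, outlier spots kept, an adjusted p under 0.1 and each array left out. Slide could not be a covariate.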

Additional observations from a re-analysis of the deposited data

How the results depend on the processing

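Of the 11 B cell identity probes, 4 were called in CS against air. The count was 0 without a filter on dim probes (where 1.35% of all probes were called lower), 0 with array row as a covariate (0.486%), 2 with only the arrays of the 2 groups compared (4.15%) and 9 at an adjusted p under 0.1 (10.8%). Leaving out 1 array at a time gave 0 to 5 calls: 0 without air 1, air 3, CS 2, CS 3 or IQOS 3 (0.971% to 4.88% of all probes), 2 without air 2 or IQOS 1, and 5 without CS 1 or IQOS 2. In IQOS against CS the 1 call became 0 without a filter (1.78% of all probes called higher), 0 with array row (0.185%), 0 with only the 2 groups (2.9%) and 2 at an adjusted p under 0.1 (10.3%), and leaving out 1 array gave 0 to 2, with 2 without CS 1 and 0 without air 1, air 3, CS 2, CS 3, IQOS 1 or IQOS 3. In IQOS against air the count was 0 in every setting run. Nothing in the labels pairs arrays of the same replicate number. Deviations of same-numbered arrays correlated at 0.08, 0.20 and 0.17 in IQOS against air, beside -0.16 to -0.002 for arrays of unlike number. The values were 0.13, 0.01 and 0.16 in IQOS against CS, beside -0.25 to 0.12. For CS against air they were -0.08, -0.04 and -0.06, beside -0.03 to 0.11. These few correlations do not decide whether the numbers pair the arrays. With the replicate number as a block there were 9 calls in CS against air (4.65% of all probes) and 7 in IQOS against CS (4.37%). No filter adds dim probes to the adjustment, and leaving out arrays or groups lowers the number of samples; the cause of the other differences was not tested. The median change of the 9 genes kept its sign in all settings and, with 1 array left out, ranged from -1.57 to -1.06 for CS against air, -0.59 to -0.10 for IQOS against air and 0.74 to 1.19 for IQOS against CS. Single values that changed sign were all uncalled. Pax5 in CS against air was 0.044 with normexp, 0.031 without air 1 and 0.048 without CS 3, in a range of -0.28 to 0.048 with 1 array left out. In IQOS against air the second Cr2 probe was 0.021 without air 1 and 0.099 without IQOS 2 (range -0.45 to 0.099), and Cxcr5 was 0.082 without IQOS 2 (range -0.57 to 0.082). Signal over background limits Klhl14, for which the CS arrays give no measured size.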

Other observations

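Of 9 listed B cell precursor genes 6 were tested, and Rag1, Rag2 and Igll1 were not. In CS against air 1 of the 6 fell and 1 rose, where 6.12% of tested genes fell and 5.6% rose. Dntt, the polymerase that adds untemplated bases to antigen receptor joints, fell (-1.25 ± 0.27, adjusted p 0.0292) and Vpreb3, which encodes a chaperone-like partner of immunoglobulin chains in B cell precursors, rose (0.88 ± 0.12, adjusted p 0.0075). Vpreb3 was lower in IQOS than in CS (-0.52 ± 0.12, adjusted p 0.0333). Of 10 tested germinal centre and marginal zone genes, Cd9, a tetraspanin that many lung cells also carry, rose with CS against air (0.37 ± 0.06, adjusted p 0.0124) and was lower in IQOS than in CS (-0.45 ± 0.06, adjusted p 0.0061). Of 7 tested follicular dendritic and lymphoid stromal genes, Bst1, an ectoenzyme of stromal and myeloid cells, rose with CS against air (0.92 ± 0.21, adjusted p 0.0359). Of 11 NK cell genes limma called 0 in each comparison. At an unadjusted p under 0.05, 2 were lower in CS against air, 1 lower in IQOS against air and 1 higher in IQOS against CS. Over all tested probes the matching shares were 16.5%, 9.82% and 16.6%.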
